A study of Oryza sativa Indica Group with 4 samples.

Results

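Genes of gibberellin perception and response, 8 in all and read by 9 probe sets, were examined in rice seedlings. They were taken by name alone: a probe set was included when its one annotated gene carried the symbol or a synonym GID1, GID2, SLR1, SLRL1, GAMYB, SPY, CIGR1 or CIGR2. All 8 names were found, out of 17905 genes with such a probe set. Whole seedlings of Basmati 370 (B370), an Indica rice, were compared 15 days after germination between a T-DNA insertional mutant labelled OsAPC6 (2 arrays) and the wild-type cultivar (2 arrays). Both genotypes grew under the same labelled conditions, no treatment is named, and the labels describe 1 insertion line. The line is named for a component of the APC, a large ubiquitin ligase that carries cells out of mitosis; the level of that component's transcript was not analysed here.

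Gibberellins are diterpenoid hormones that promote stem and leaf elongation, seed germination and anther development. In rice the hormone binds the soluble receptor encoded by gid1. The loaded receptor then binds the DELLA repressor SLR1, and an SCF ubiquitin ligase with the F-box protein GID2 marks SLR1 for degradation. Removal of SLR1 releases transcription, including that of the activator gene GAMYB. This pathway is controlled largely through the stability of the SLR1 protein, which transcript arrays do not measure.

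The arrays were alike in overall level. With the top and bottom 2% of signals trimmed, each of the 4 arrays had a mean of 500.1, so the deposited signals had been scaled to a common level. Differences below are of log2(signal + 16), mutant minus wild type, fitted with limma over 38172 probe sets. A probe set was called at a Benjamini-Hochberg adjusted p of 0.05. Log2 signals correlated at r = 0.976 between the mutant arrays and r = 0.979 between the wild-type arrays, across these probe sets. Control probes at the 3′ end of GAPDH read 18.4 and 16.2 times those at the 5′ end in mutant arrays and 9.72 and 9.84 times in wild-type arrays, a ratio used to judge RNA integrity. The same ratio for ubiquitin was 1.32 and 1.27 in mutant arrays and 1.04 and 1.03 in wild-type arrays, while the ratios of actin and cyclophilin overlapped. Of 19 rice control probe sets, the one at the 5′ end of GAPDH differed most, by -0.77.

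The bright green shoot markers fitted green seedlings. The light-harvesting gene CAB2R gave signals of 53054 and 46568 in the mutant arrays and 42637 and 43508 in the wild-type arrays. Summed over 3 green shoot genes, the signal was 87469 and 76997 in mutant arrays and 69068 and 70980 in wild-type arrays. RBCS, which encodes the Rubisco small subunit, was up by 0.26. The other, RBCS1, stayed at or under 29.2 on all 4 arrays, so the sum rests on CAB2R and RBCS. Summed over 4 genes matched by root marker names, it was 1418 and 1579 in mutant arrays and 2089 and 2280 in wild-type arrays. In that list the root silicon transporter gene Lsi1 fell by 0.74. Lsi2 stayed at or below 2.1 and IRT1 at or below 27.8, and phr is a photolyase gene by its other names. Of 5 endosperm genes, whose sums were 1567 and 1534 in mutant arrays and 1419 and 1367 in wild-type arrays, the starch synthase gene GBSS-I rose by 1.03, while the glutelin gene GLUA2, the brightest of them, read 962.9 and 962.0 in mutant arrays and 1163 and 1075 in wild-type arrays, a difference of -0.21 that did not pass, and the other 3 stayed at or under 29.3. The 4 anther and pollen genes summed to 102.8 and 192.0 in mutant arrays and 125.5 and 155.8 in wild-type arrays, which overlapped. In whole seedlings a change in the share of a tissue and a change of RNA per cell cannot be told apart. The part of tissue share and of RNA integrity in the results below was not tested.

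Among these genes 2 probe sets passed the test, both by small differences. The receptor gene gid1 was higher in the mutant and CIGR2 lower, each by about 1.2-fold. The DELLA gene SLR1 and the response gene CIGR1 lay within 1.04-fold of wild type, while SLRL1 was too dim and variable to place. By probe set, 1 of 9 rose, 1 fell and 7 did not pass the test. Across all tested probe sets 8.86% were called higher and 10.3% lower, 19.1% together. The count of 2 among 9 is near that background, so it is not a result particular to these genes. Their median log2 difference was -0.0019, against -0.011 over all 38172 probe sets.

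**Figure D1:**
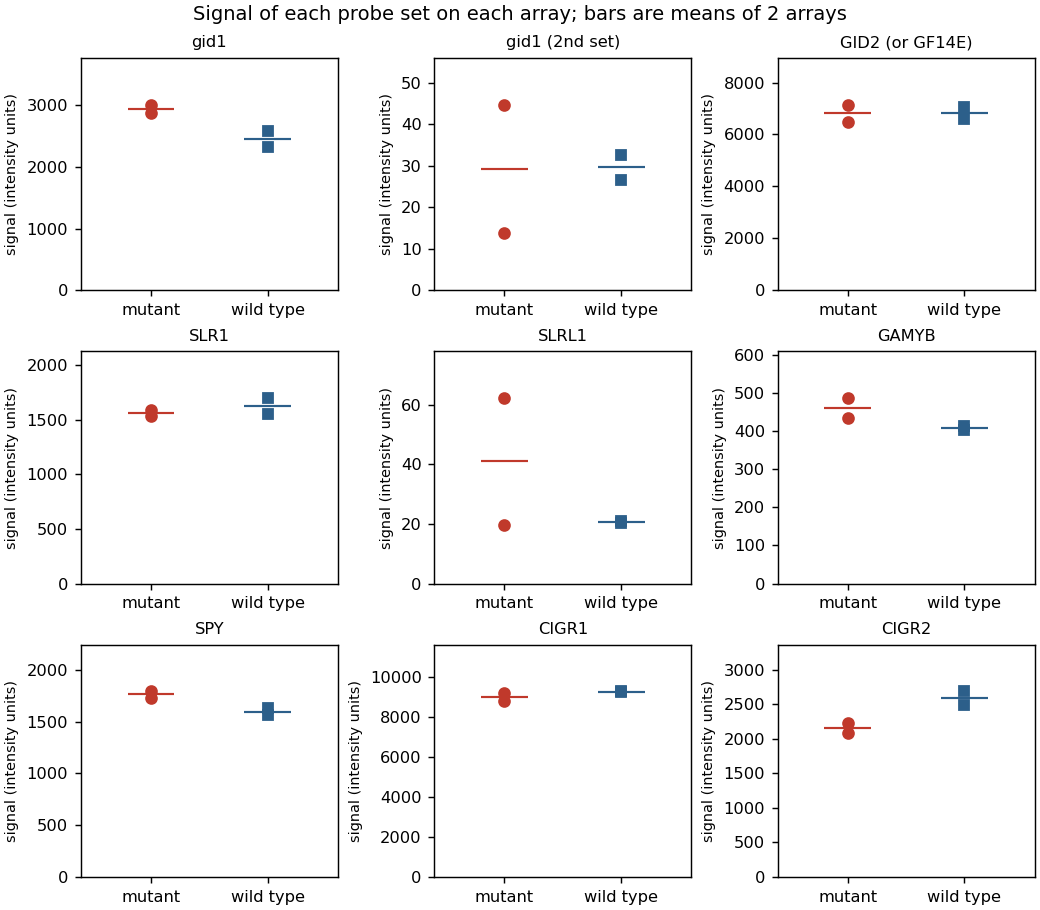
Signal (intensity units, linear axes from 0, a separate scale in each panel) of the 9 probe sets on each mutant and wild-type array, with the mean of 2 arrays as a bar. Both mutant arrays lie above both wild-type arrays for gid1 (2879 and 3012 in mutant, 2322 and 2583 in wild type) and below them for CIGR2, while the genotypes overlap for SLR1.

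The receptor came first in the pathway. The gid1 gene (LOC4338764) encodes the soluble hormone receptor, a protein related to hormone-sensitive lipases. The brighter of its probe sets read 2879 and 3012 in the mutant arrays, against 2322 and 2583 in the wild-type arrays. Both mutant signals were above both wild-type signals, and the means were 2946 ± 93.8 in mutant and 2453 ± 184.7 in wild type (SD, n = 2 arrays each). The log2 difference was 0.26 ± 0.08 (SE; limma adjusted p = 0.0408), with a 95% interval of 0.09 to 0.44, or 1.06-fold to 1.36-fold. The 4 mutant to wild-type pairs of arrays differed by 0.16 to 0.37, and the wild-type arrays differed from each other by 0.15.

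The call for gid1 lay close to the threshold. It was lost without any one of the 4 arrays, with adjusted p-values from limma of 0.0521 to 0.304 and differences of 0.19 to 0.34. It was also lost with no filter on low signal (limma adjusted p = 0.0906) and with a single prior variance in place of the intensity trend (limma adjusted p = 0.292), where limma called 0 of all 38172 probe sets and 9029 had an unadjusted p under 0.05. Of all tested probe sets, 55.2% had a larger absolute difference than gid1, and 4 of the 19 rice control probe sets did.

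A further probe set of the same gene was dim. It read 44.8 and 13.9 in the mutant arrays and 32.7 and 26.6 in the wild-type arrays. The mutant arrays enclosed the wild-type ones, and the log2 difference of -0.10 ± 0.51 (SE; limma adjusted p = 0.932) had an interval of -1.23 to 1.04. That interval holds the value of the brighter probe set, so the dim probe set does not separate a rise like that of the brighter one from no change.

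The F-box step could not be read with certainty. The probe set belongs to LOC4329775, which the RefSeq gene table lists as both GF14E, a 14-3-3 protein gene, and GID2. A separate protein-coding gene, LOC112937812, also carries the name GID2, stands 2 places along in that table's order, and had no single-gene probe set in the annotation used here. Which of these transcripts the probe set detects is not given in the sources used here. It read 7154 and 6491 in the mutant arrays, against 6593 and 7062 in the wild-type arrays. The genotypes overlapped, at a difference of -0.0019 ± 0.07 on the log2 scale (SE; limma adjusted p = 0.992) and an interval from 0.893-fold to 1.12-fold of wild type.

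SLR1 is the single DELLA protein of rice, a GRAS family repressor whose loss gives constitutive gibberellin responses and slender plants. Its probe set (LOC4333860, also listed as GAI) read 1589 and 1535 in the mutant arrays, against 1549 and 1698 in the wild-type arrays. One mutant signal lay between the wild-type signals and the other just under both. Means were 1562 ± 37.9 in mutant and 1624 ± 105.6 in wild type (SD, n = 2 each), and the log2 difference was -0.05 ± 0.08 (SE; limma adjusted p = 0.733). Its 95% interval ran from 0.846-fold to 1.10-fold of wild type.

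The change of gid1 was set against that of SLR1 within each array. This comparison was not planned, and it set a called gene against one that was not called. An unequal change was thus favoured by the choice. The log2 value of gid1 minus that of SLR1 was 0.85 and 0.97 in the mutant arrays and 0.58 and 0.60 in the wild-type arrays. Both mutant values were higher, by 0.32 on average. A two-sided exact permutation test gave p = 0.333 (0.333 after Benjamini-Hochberg adjustment over 2 such comparisons), the smallest that 2 against 2 arrays allow. Such a test could not pass in this design, so it does not settle whether the receptor and the DELLA gene changed unequally.

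SLRL1 (LOC4325922) encodes an SLR1-like GRAS protein without the DELLA domain that also represses gibberellin responses. It was dim, at 19.7 and 62.3 in the mutant arrays against 20.4 and 21.1 in the wild-type arrays. One mutant array stood high while the other was just below both wild-type arrays. The log2 difference was 0.52 ± 0.52 (SE; limma adjusted p = 0.566), and without the second mutant array it was -0.04. At these signals a difference of up to 3.21-fold upward or down to 0.645-fold of wild type lay inside the interval.

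**Figure D2:**
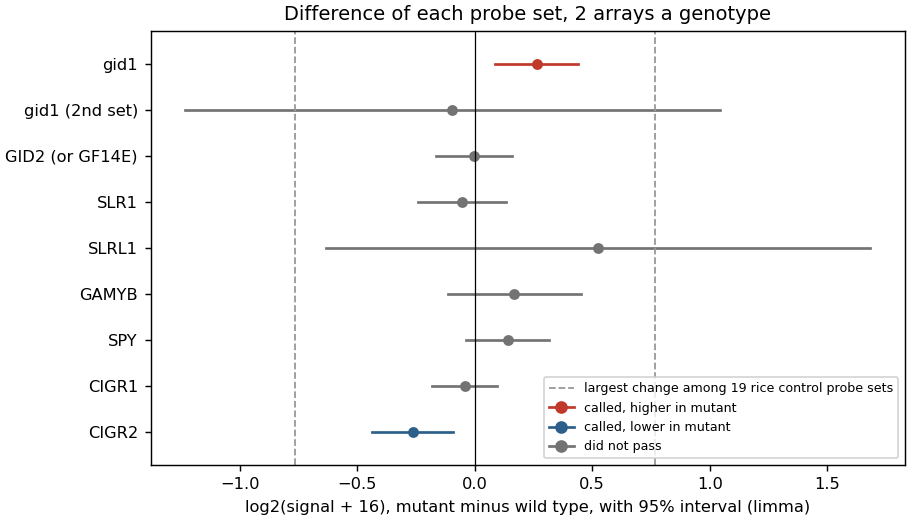
Log2 difference, mutant minus wild type, of each of the 9 probe sets (points) with limma's 95% interval (lines); dashed lines mark the largest absolute difference among 19 rice control probe sets, 0.77. The intervals of gid1 (0.09 to 0.44) and CIGR2 (-0.44 to -0.09) leave out 0, and those of the dim probe sets of SLRL1 and gid1 are the widest.

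SPY and GAMYB act on either side of the repressor. SPY (LOC4346315) encodes an O-glycosyltransferase that restrains gibberellin signalling through the DELLA protein. It read 1794 and 1732 in the mutant arrays, against 1630 and 1568 in the wild-type arrays. All 4 pairs of arrays were higher in the mutant, by 0.09 to 0.19, and the log2 difference of 0.14 ± 0.08 (SE) did not pass (limma adjusted p = 0.272; interval -0.04 to 0.32).

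GAMYB (LOC4327362, also listed as GAM1) encodes the MYB activator of alpha-amylase genes in the aleurone and of anther development. Its probe set read 487.8 and 434.8 in the mutant arrays, against 413.1 and 402.8 in the wild-type arrays. Both mutant signals were higher, but the log2 difference of 0.17 ± 0.13 (SE) did not pass (limma adjusted p = 0.43; interval -0.11 to 0.45). The ID of this probe set ends in _x_at, the array's mark for probes that may also bind other transcripts.

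CIGR1 and CIGR2 are GRAS family genes named for their induction by chitin fragments and by gibberellin in rice cells. CIGR2 (LOC4343735) read 2224 and 2088 in the mutant arrays, against 2688 and 2495 in the wild-type arrays. Both mutant signals were below both wild-type signals, with means of 2156 ± 96.2 in mutant and 2592 ± 136.8 in wild type (SD, n = 2 each). It fell by 0.26 on the log2 scale (SE 0.08; limma adjusted p = 0.0394), to 0.833-fold of wild type, with an interval of -0.44 to -0.09. The 4 pairs of arrays differed by -0.36 to -0.16.

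This call was near the threshold as well. It was lost with a common 75th percentile (-0.23; limma adjusted p = 0.0791), with no filter on low signal (limma adjusted p = 0.0792), with a single prior variance (limma adjusted p = 0.279), and without any one array other than the first mutant array. The difference was -0.22 without the second mutant array (limma adjusted p = 0.135), -0.21 without wild-type array 1 (limma adjusted p = 0.262) and -0.32 without wild-type array 2 (limma adjusted p = 0.0797). Among all tested probe sets 55.4% had a larger absolute difference than CIGR2.

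CIGR1 (LOC4343521) read 9193 and 8778 in the mutant arrays, against 9228 and 9278 in the wild-type arrays. Both mutant signals were lower, and the nearest pair of arrays differed by -0.0056 on the log2 scale. The log2 difference was -0.04 ± 0.06 (SE; limma adjusted p = 0.715), with an interval from 0.882-fold to 1.07-fold of wild type. Setting CIGR2 against CIGR1 was likewise unplanned, and put a called gene against one that was not called. Within arrays, the log2 value of CIGR2 minus that of CIGR1 was -2.04 and -2.06 in the mutant arrays and -1.77 and -1.89 in the wild-type arrays. This within-array value differed by -0.22, mutant minus wild type, with a two-sided exact permutation p of 0.333 (0.333 after Benjamini-Hochberg adjustment over 2 comparisons), again the smallest possible, so this comparison is not settled by the test either.

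Signal level bears on how these counts read. The probe sets with a mean signal of at least 500, a bound taken after the values were seen, were 6 of the 9. Among them 1 rose and 1 fell, while 37.3% of all probe sets that bright were called, 16.2% higher and 21.1% lower. The genotypes did not overlap in 5 of the 9 probe sets, 3 higher in the mutant and 2 lower, and 56.6% of all tested probe sets did not overlap, 26.9% higher and 29.7% lower. Called at the brightest probe set of each gene, 2 of the 8 genes passed, beside 26.3% of all 16492 genes tested that way.

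**Figure D3:**
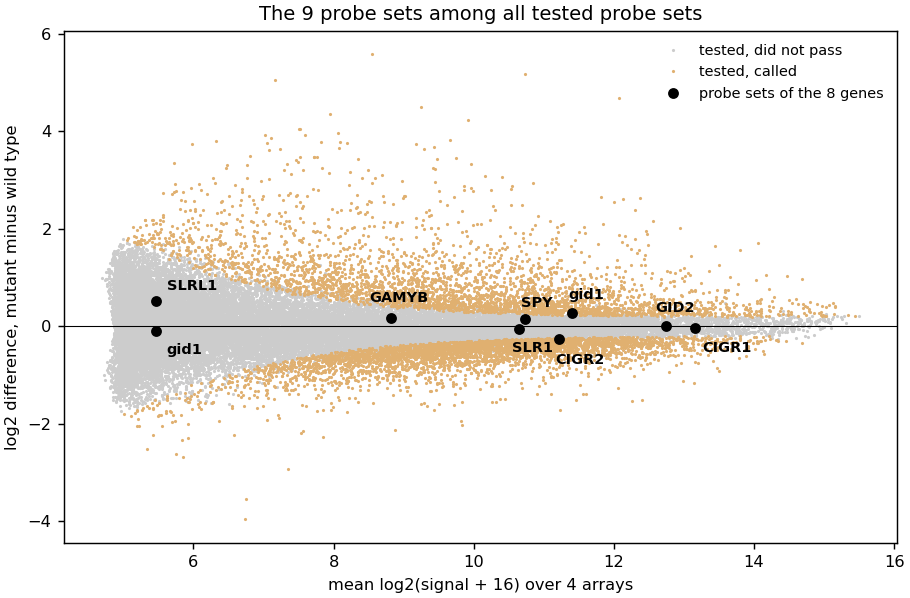
Log2 difference, mutant minus wild type, against mean log2(signal + 16) over 4 arrays for 38172 tested probe sets, with the 9 probe sets of the 8 genes in black. The points of gid1 (0.26) and CIGR2 (-0.26) lie at the edge where calls begin at their signal level, and those of SLRL1 (0.52) and the other gid1 probe set (-0.10) at the dim end where the spread is wide.

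Other genes of the gibberellin pathway were taken from 5 lists of names, 29 genes in all with 26 tested at 1 probe set a gene. Among these 3 rose, 4 fell and 19 did not pass, beside 12.9% higher and 13.5% lower over all genes at their brightest probe set. The median log2 difference of the 26 was 0.15, against -0.011 over all tested probe sets. That second median is not limited to 1 probe set a gene, so the medians are not like for like. The count of 7 calls became 4 without the second mutant array, 3 without the second wild-type array, 4 with no filter on low signal and 0 with a single prior variance. CYP701A8, KS1A and GF14C kept their call whichever array was left out, WRKY71 lost it without the second wild-type array, KAO kept it without the first mutant array alone, EXPA1 without the first wild-type array alone, and CPS1 lost it without any one array.

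Of 7 genes matched by names of gibberellin synthesis, 2 rose and 2 fell, beside 12.9% higher and 13.5% lower over all genes at their brightest probe set. CPS1, the cyclase of the first committed step, read 298.0 and 295.5 in mutant arrays and 425.6 and 429.0 in wild-type arrays, a difference of -0.50 (limma adjusted p = 0.0242). KS1A, the kaurene synthase that follows it, differed by -0.60 (limma adjusted p = 0.00353). Its gene is also listed as OsKS1B and OsKS1C, and its probe set ID ends in _s_at. Which transcripts that probe set detects is not given in the sources used here. KAO, an oxidase of the middle of the route, was higher by 0.45 (limma adjusted p = 0.0336). The large rise of 2.78 (2580 and 2698 in mutant arrays, 429 and 320 in wild-type arrays; limma adjusted p = 3.59e-07) belonged to CYP701A8. This P450 was matched through the synonym KO1, and in rice it is known for phytoalexin rather than gibberellin metabolism. With CYP701A8 left out of the 5 lists, 25 genes were tested, of which 2 rose and 4 fell, with a median log2 difference of 0.14. The shares to set beside those counts are the same 12.9% higher and 13.5% lower. GA20OX3, GA20OX2 and OsKO2 did not pass, with differences of 0.14, 0.17 and -0.12. For OsKO2 the wild-type arrays lay far apart, at 286.0 and 618.9, and the interval ran from -0.72 to 0.48. A dimmer probe set of OsKO2 gave 0.03. Both OsKO2 probe sets have IDs ending in _x_at, the mark described for GAMYB.

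The only gene matched by names of inactivation was CYP714D1, also called EUI1, a P450 that deactivates gibberellins by epoxidation. It was dim, at 72.4 and 62.5 in mutant arrays and 18.8 and 34.2 in wild-type arrays, and its difference of 0.99 ± 0.40 (SE) did not pass (limma adjusted p = 0.121).

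Among 7 other signalling genes 1 rose, 0 fell and 6 did not pass. Over all genes at their brightest probe set, 12.9% were called higher and 13.5% lower. WRKY71, a repressor of gibberellin-induced alpha-amylase genes in the rice aleurone, read 10173 and 8898 in mutant arrays and 7720 and 7250 in wild-type arrays. It was higher by 0.35 ± 0.08 (SE; limma adjusted p = 0.0103), while its dimmer probe set gave 0.05 (limma adjusted p = 0.848). GDD1, a kinesin-like regulator of gibberellin synthesis, D1, the G protein alpha subunit, and WRKY51, a partner of WRKY71, gave -0.15, -0.14 and 0.18 and did not pass.

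Of 11 genes listed as known or candidate gibberellin-responsive, 8 were tested, and 0 rose and 2 fell. Beside these counts stand 12.9% higher and 13.5% lower over all genes at their brightest probe set. The expansin gene EXPA1, which encodes a wall-loosening protein, read 185.6 and 185.5 in mutant arrays and 251.2 and 362.8 in wild-type arrays, a difference of -0.66 (limma adjusted p = 0.0414). A brighter expansin gene of the list, EXPA2, went the other way. It read 908.6 and 854.1 in mutant arrays and 747.9 and 706.6 in wild-type arrays. Its difference of 0.27 did not pass (limma adjusted p = 0.0873). GF14C, a 14-3-3 protein gene, read 8143 and 7524 in mutant arrays and 10381 and 13012 in wild-type arrays, a difference of -0.57 (limma adjusted p = 0.00245). AMY1A, the classical alpha-amylase target of GAMYB in germinating grain, stayed at or under 7.7 on all 4 arrays and was below the filter. None of 3 further GRAS genes passed in limma (SCR1, SHR1 and SCL7, with 0 at an unadjusted p under 0.05), with signals no higher than 109.2.

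**Figure D4:**
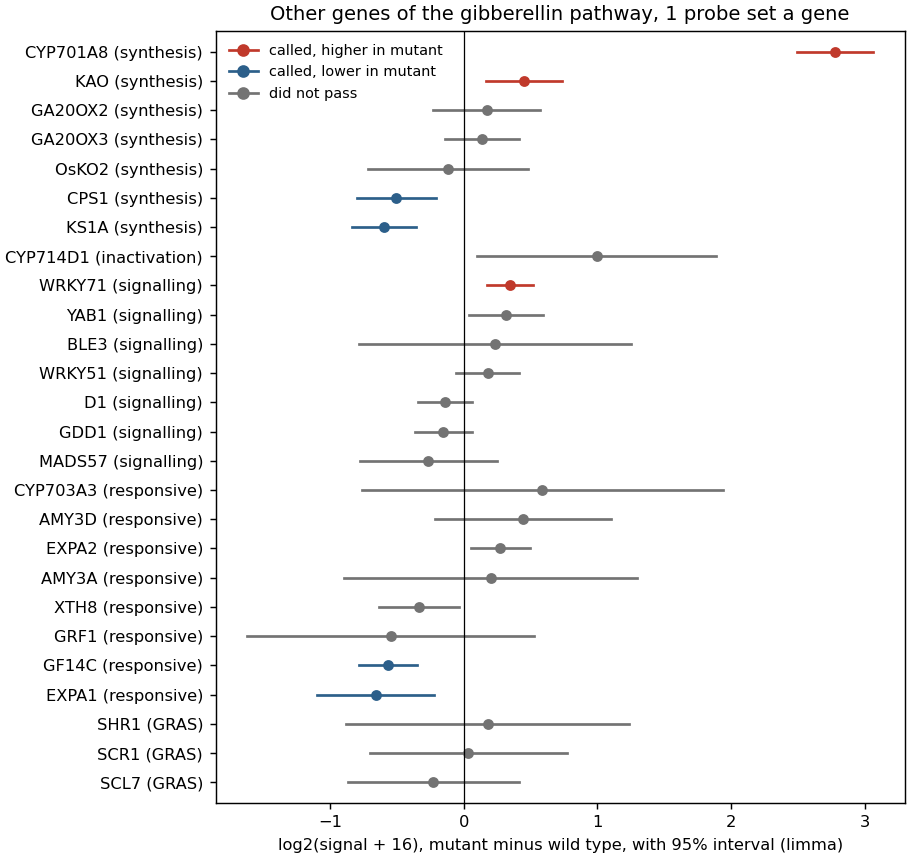
Log2 difference, mutant minus wild type, with limma's 95% interval for the 26 other pathway genes tested, grouped by list. CYP701A8 (2.78) stands apart, and the other called genes lie between -0.66 and 0.45.

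Likeness of pattern was measured as the root mean square distance between log2 values centred on their mean over the 4 arrays, across 2867 probe sets of genes with an informative name. Nearest to gid1 were the protein phosphatase gene OsPP2C32 (0.016), the SnRK1-type kinase gene OSK24 (0.021) and the calmodulin gene CAM3 (0.022). Of these CAM3 was called (limma adjusted p = 0.018), while OsPP2C32 and OSK24 did not pass (limma adjusted p = 0.0626 and 0.0517). Nearest to CIGR2 were BGLU30, CYCD5-2 and AGO4B, at 0.020, 0.020 and 0.023. None of these passed (limma adjusted p = 0.0565, 0.125 and 0.0729). Nearest to SLR1 were the splicing factor gene Os-RSZ23 and the ribosomal protein genes RPL7A-2 and RPL11, at 0.0084, 0.0086 and 0.0091. With 4 arrays such distances describe these arrays only.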

How the data were processed

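RNA from seedlings was hybridised to Affymetrix rice arrays, 1 array per sample, from 8 µg of total RNA per the labels. The authors deposited 1 linear intensity per probe set and array. GCOS 1.2 is the software in the submitters' processing notes; its signal algorithm is not given in the sources used here, and detection calls were not used. The series' design text calls the 2 arrays of each genotype biological replications.

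Log2(signal + 16) was taken, which understates differences of dim probe sets. The 123 AFFX control probe sets and then the third with the lowest mean signal (19086) were left out, leaving 38172 with a mean of at least 16.05. Array medians lay within 0.06 on the log2 scale, so no normalization was added. Genotypes were compared with limma 3.58.1 in R 4.3.3 (intensity trend, Benjamini-Hochberg adjustment, threshold 0.05). The fit was also run on simulated data. How often changes as small as those of gid1 and CIGR2 were recovered there is not reported here.

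Names came from the platform annotation and, by gene number, from the RefSeq table of ASM3414082v1. A single gene was given for 22436 probe sets, each found in that table; 95 had more than 1 gene and 34850 had none listed. The genes named in the text are all 8 members; of the other lists every called gene and, for synthesis, inactivation and signalling, up to 3 not called with the highest signal; and the 3 nearest patterns to SLR1 and each called member. SCR1, SHR1, SCL7, AMY1A and EXPA2 were named after their values were seen. Members and lists were chosen with earlier results of these data known. Nothing in the labels says that equal replicate numbers share a batch, so samples were not paired. Equal replicate numbers did not deviate together between genotypes (r = -0.0047 across probe sets). With 2 arrays a genotype that value cannot show that no batch was shared. Alternatives changed the added constant, the filter, the normalization, the variance prior, the replicate block and the arrays used.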

Additional observations from a re-analysis of the deposited data

Results flagged for a closer look

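One signal lay outside the rice genes and above its level in wild type. For a reporter sequence on the array (RPTR-Os-K01193-1_at) the signal averaged 10188 in the mutant arrays (10386 and 9989) and 266.4 in the wild-type arrays (245.6 and 287.2), while none of the other 63 reporter probe sets exceeded 78.5 on any array. It separates the genotypes as labelled, and any relation of this signal to the 8 gibberellin genes was not tested.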

How the results depend on the processing

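Among the 9 probe sets, 2 were called, and this count became 0 with no filter on low signal, 0 with a single prior variance, 1 with a common 75th percentile and 0 to 1 on leaving out 1 array, where the remaining array of that genotype is taken to vary as much as the other genotype's. Of the 14 alternatives run on each, gid1 and CIGR2 kept their direction in all and their call in 8. For the other pathway genes, 7 calls became 4 with no filter, 0 with a single prior variance and 3 to 6 with an array left out. Over all probe sets, 7300 calls became 0 with a single prior variance and 4636 to 6305 with an array left out, the lowest being 4752 without the first wild-type array and 4636 without the second. The share higher in the mutant was 46.3%, 52.3% with a common 75th percentile and 53.1% without either wild-type array, so which direction held more calls turned. The causes were not tested. The replicate block gave 2 of the 9 probe sets and 7782 of all, and changed no call among the 9.

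Signs turned only in probe sets that never passed. GID2 was 0.032 with a common 75th percentile. With an array left out, GID2 lay between -0.072 and 0.068, SLR1 between -0.12 and 0.011, SLRL1 between -0.042 and 1.09, and the dim gid1 probe set between -0.61 and 0.42. The filter by mean log2 signal was added after seeing the data and changed no count by over 1.5 times.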
